A study of Gallus gallus with 4 samples.

Results

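The chick small RNA tables list 8 repeat families whose names begin with Mariner, Char or hAT, out of 241 transposable element (TE) rows. They were chosen by name, with earlier results of these data known: Mariner1_GG, Mariner1b_GG, Char12Mar1_GG, Charlie12_GG, Charlie12_GGa, Charlie7_Aves, Charlie7a_Aves and hAT6-N1_Croc. The name Char12Mar1_GG joins those of Charlie12 and Mariner1, and its reads were not placed on either part here. A further 4 rows named OldhAT lie outside this choice, with no oxidized read and with 13 and 2 reads in total replicates 1 and 2.

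The small RNA came from wild-type chick (Gallus gallus) heads, namely the cranial midbrain region at stage HH9-, after about 30 h of incubation at 37 °C, and was gel-selected at 19 to 38 nucleotides. The oxidized group holds 2 libraries made after sodium periodate treatment of one portion of each sample. The total group holds 2 libraries made from the untreated portions, so both groups share the embryos, stage and size range. The labels do not say how many embryos were pooled or whether the 2 samples were separate pools, so p-values measure only the spread between these libraries, which may be technical.

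Mariner elements and Charlie elements are DNA transposons. A transposase cuts the element out of the DNA and inserts it elsewhere, with no RNA copy as an intermediate. Mariner belongs to the Tc1/mariner superfamily and Charlie to the hAT superfamily, each with its own type of transposase. In animal gonads PIWI-interacting RNAs (piRNAs) guide PIWI proteins to transposon transcripts. A piRNA carries a 2′-O-methyl group on its last ribose, which protects it from periodate, whereas most vertebrate microRNAs (miRNAs) and RNA breakdown products lack that group. The comparison of oxidized with total libraries therefore asks which small RNAs withstand periodate. The strand opposite to the annotated element is called antisense here, and antisense piRNAs can pair with transposon transcripts.

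Assigned reads numbered 10981001 and 14081954 in the oxidized libraries, and 17962725 and 14946049 in the total libraries. TE reads were 48.5% and 46.1% of these in the oxidized libraries, compared with 0.868% and 1.01% in the total libraries. The miRNA reads were 1.56% and 1.62% of oxidized libraries and 75.6% and 68.2% of total libraries. Levels below are counts per 1000000 assigned reads (CPM). A higher CPM after oxidation is thus a higher share of what was sequenced, and the same row can have a lower share of TE reads. It does not by itself show that the RNA of a row withstood periodate. Gene IDs in the files were not paired with names here, so the tissue was not checked against marker genes.

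The 3 rows with Mar or Mariner in their names held nearly all of the reads of the 8 families after oxidation, and most of them in the total libraries too. The plain Charlie and hAT rows had few or no reads in the total libraries and fewer or none after oxidation. A read fell on 7 of the 8 rows in some library and on 4 of them in the oxidized libraries. The same 4 passed the filter on low counts: Char12Mar1_GG, Mariner1_GG, Mariner1b_GG and Charlie12_GG. As a share of all assigned reads, 2 of these 4 were called higher after oxidation, 1 lower and 1 neither (edgeR quasi-likelihood test, Benjamini-Hochberg adjusted p under 0.05 over 1326 rows). With TE reads as the library size 0 were called higher and 3 lower (edgeR, 0 higher at an unadjusted p under 0.05). In that fit 44% of TE rows and 75.3% of all rows tested were called lower, and 1.72% and 0.157% higher. DESeq2 was run with its own size factors only, not with TE reads, and called 2 higher and 1 lower. In the fit to all assigned reads 67.6% of the 105 TE rows tested were called higher and 18.1% lower. Over all 1326 rows the shares were 15.7% higher and 57.3% lower. The oxidized libraries both lay above the total ones for 3 of the 4 rows, against 72.4% of TE rows tested, and both below for 1, against 21%. Charlie12_GG passed the filter through its total libraries alone, so its call is given as a description.

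Mariner1_GG, a mariner family of the chicken genome, had many reads in both oxidized libraries. It had 753 and 1422 reads after oxidation, against 139 and 151 in the total libraries. These are levels of 68.6 and 101 CPM after oxidation, against 7.74 and 10.1 CPM in total libraries. Both oxidized libraries lay above both total libraries. The ratio of oxidized over total was similar by library number, 8.86 for the libraries numbered 1 and 9.995 for those numbered 2. The mean level was 84.8 ± 22.9 CPM in oxidized libraries and 8.92 ± 1.67 CPM in total libraries (SD, n = 2 each), so Mariner1_GG rose 9.50-fold as a share of all assigned reads but fell as a share of TE reads (edgeR log2 fold change 3.25, SE 0.46, adjusted p = 0.00722; scaled to TE reads -2.39, adjusted p = 0.00989). With the replicate number as a block it stayed past the threshold (adjusted p = 0.0322). Scaled to reads other than miRNA its log2 fold change was 1.44 and did not pass (adjusted p = 0.0671), and without total replicate 1 or total replicate 2 the call was lost (adjusted p = 0.189 and 0.138).

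Char12Mar1_GG took the most reads of the 8 rows in every library. It had 986 and 2677 reads in the oxidized libraries, compared with 669 and 581 in the total libraries. Its level was 89.8 and 190 CPM after oxidation, against 37.2 and 38.9 CPM in total libraries. The groups did not overlap, but the oxidized libraries were 2.12-fold apart while the total libraries were close together. The ratio was 2.41 for the libraries numbered 1 and 4.89 for those numbered 2. On average Char12Mar1_GG had 139.9 ± 70.9 CPM in oxidized libraries and 38.1 ± 1.15 CPM in total libraries (SD, n = 2 each), and it rose 3.68-fold as a share of all assigned reads while it fell as a share of TE reads (edgeR log2 fold change 1.88, SE 0.51, adjusted p = 0.0325; scaled to TE reads -3.77, adjusted p = 0.00399). This call was the less firm of the pair. It was lost with the replicate block (adjusted p = 0.124), with TMM factors (0.0565), scaled to reads other than miRNA (log2 fold change 0.050, adjusted p = 0.942), and without total replicate 1 (0.391) or total replicate 2 (0.393). Without oxidized replicate 1 or 2 the log2 fold change was 2.32 or 1.24, with the spread then taken from the total libraries alone.

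Mariner1b_GG, named as a relative of Mariner1_GG, had many reads in 1 oxidized library only. It had 68 and 1082 reads after oxidation, against 86 and 80 in the total libraries. Its level was 6.19 and 76.8 CPM after oxidation, against 4.79 and 5.35 CPM in total libraries. Oxidized replicate 1 was just above the total libraries, and oxidized replicate 2 was 12.4-fold above oxidized replicate 1. The row did not pass (41.5 ± 49.95 CPM in oxidized and 5.07 ± 0.399 CPM in total libraries, SD, n = 2 each; edgeR log2 fold change 3.03, SE 1.36, adjusted p = 0.122). Without oxidized replicate 1 its log2 fold change as a share of all assigned reads was 3.92, and without oxidized replicate 2 it was 0.29. Either fit leaves a single oxidized library and takes its spread from the total libraries alone, so no call is drawn from it. Its direction was negative when scaled to TE reads (log2 fold change -2.59, adjusted p = 0.134). With no filter on low counts its log2 fold change as a share of all assigned reads was again 3.03, with a smaller SE of 1.04. The row was then called higher (edgeR adjusted p = 0.0198), though its oxidized libraries remain 12.4-fold apart. The share of all rows called higher in that fit was not computed.

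**Figure D1:**
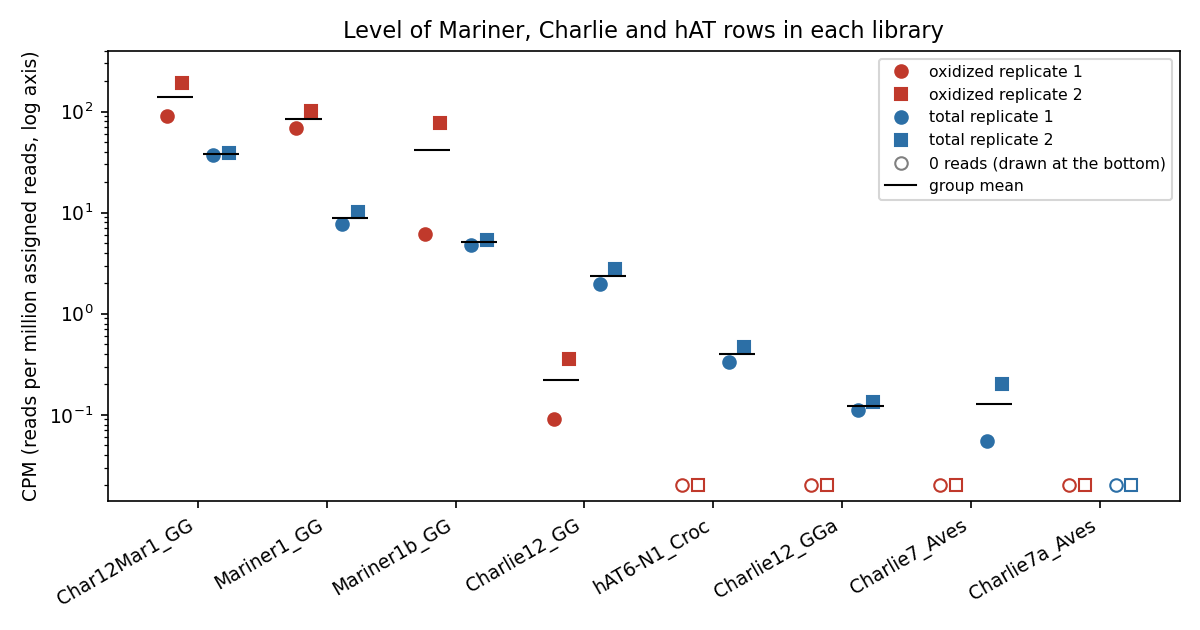
Level (CPM, log axis) of the 8 rows in each library, with oxidized libraries in red left of total libraries in blue, black lines at the group means and open symbols for rows with 0 reads. Mariner1_GG and Char12Mar1_GG lie clearly higher in both oxidized libraries, Mariner1b_GG in oxidized replicate 2 (76.8 CPM) far more than in oxidized replicate 1 (6.19 CPM), and Charlie12_GG lies lower; as shares of TE reads all 4 have lower values after oxidation.

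Charlie12_GG, the plain Charlie row with the most reads, had hardly any oxidized reads. It had 1 and 5 reads in the oxidized libraries, compared with 35 and 41 in the total libraries. These are levels of 0.0911 and 0.355 CPM in oxidized libraries, against 1.95 and 2.74 CPM in total libraries. Both oxidized libraries lay below both total libraries. Its mean CPM was 10.5-fold lower after oxidation (0.223 ± 0.187 CPM in oxidized and 2.35 ± 0.562 CPM in total libraries, SD, n = 2 each; edgeR log2 fold change -3.30, SE 0.75, adjusted p = 0.0194), and its direction was the same when scaled to TE reads or to reads other than miRNA. The row passed the filter only through the libraries where it is high, so a lower value was nearly set by that filter. With no filter on low counts the log2 fold change was similar (-3.33) with a larger SE (1.66), and the call was lost (edgeR adjusted p = 0.118). It was also lost with the replicate block (adjusted p = 0.463) and without total replicate 1 (0.860) or total replicate 2 (0.828). Without oxidized replicate 1 or 2 its log2 fold change was -2.69 or -4.56, with the spread then taken from the total libraries alone.

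The remaining 4 rows did not pass the filter on low counts. hAT6-N1_Croc, named for a crocodilian hAT element, had no read in either oxidized library, against 6 and 7 without oxidation. With no filter it was called lower (edgeR adjusted p = 0.0194), which is given as a description. The share of all rows called lower in that fit was not computed. Charlie12_GGa had no read in oxidized libraries, against 2 and 2 in total libraries, and Charlie7_Aves had none, against 1 and 3. Charlie7a_Aves had 0 reads in all 4 libraries. A count of 0 allows up to 3 reads, or 0.273 and 0.213 CPM in the oxidized libraries. The total levels of Charlie12_GGa (0.111 and 0.134 CPM) and Charlie7_Aves (0.0557 and 0.201 CPM) are under those limits, so a loss was not detectable at this depth. Those limits treat reads as separate molecules. On the untested scale given next, an unchanged share of hAT6-N1_Croc would be 0.0794 molecules, so a loss of that row could not be told either.

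Reads of an oxidized library may be copies of fewer molecules, and other rows of the same libraries give a scale for this. Gene rows seen in a single oxidized library, with 20 reads or more, had a median of 122 reads in oxidized replicate 1 (quartiles 88.8 and 146, 202 rows) and 130.5 reads in oxidized replicate 2 (quartiles 68.3 and 168, 218 rows). If such a median is the yield of 1 molecule, which was not tested, Char12Mar1_GG would stand for 8.08 and 20.5 molecules in the oxidized libraries. Mariner1_GG would stand for 6.17 and 10.9 molecules, and Mariner1b_GG for 0.557 and 8.29. At an unchanged share, Charlie12_GG would be expected at 58.8 reads over both oxidized libraries, which is 0.464 molecules, and hAT6-N1_Croc at 10.1 reads, or 0.0794 molecules. An alternative fit divided oxidized reads by these medians and rounded them, with total reads left as they were. Charlie12_GG was then no longer called lower (edgeR adjusted p = 0.438). Mariner1b_GG was called higher as a share of all assigned reads together with Mariner1_GG and Char12Mar1_GG (log2 fold change 3.15, 3.26 and 1.93; edgeR adjusted p = 7.19e-05, 8.86e-08 and 2.36e-05). Rounding raised the 0.557 of Mariner1b_GG to a whole molecule. The groups are in unlike units in this fit, so its p-values are a description and not firmer calls.

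Set beside other TE rows, the 4 Mariner and Charlie rows tested had log2 fold changes below the median. The log2 fold change of Mariner1_GG ranked 65 from the highest among the 105 TE rows tested, that of Mariner1b_GG 69, that of Char12Mar1_GG 77 and that of Charlie12_GG 86, with a median of 4.05 over all of these rows. Of the 71 TE rows called higher, 0 had a lower log2 fold change than Char12Mar1_GG and 7 had a lower one than Mariner1_GG. Summed over the 8 rows, the level was 165 and 368 CPM in oxidized libraries and 52.2 and 57.9 CPM in total libraries, a ratio of means of 4.84. The 38 CR1 rows, the main LINE retrotransposons of birds, had a ratio of 55.3 by the same sum. The 59 rows of long terminal repeat elements whose names begin with GG or ENS had a ratio of 65.2.

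The 8 rows therefore took a smaller part of the TE reads after oxidation. They held 0.0339% and 0.0798% of TE reads in the oxidized libraries, compared with 0.602% and 0.572% in the total libraries. The groups did not overlap, and the mean share was 10.3-fold lower after oxidation (17.3-fold without oxidized replicate 2 and 7.35-fold without oxidized replicate 1). With 2 libraries against 2, an exact two-sided permutation test cannot go below p = 0.333, so no single value of this kind can pass. In the edgeR fit with TE reads as the library size, Mariner1_GG, Char12Mar1_GG and Charlie12_GG were called lower and Mariner1b_GG was not. Of the 2547 rows tested 75.3% were called lower and 0.157% higher, and of the 116 TE rows among them 44% and 1.72%. The filter on low counts was reapplied with TE reads as the library size. A row could then pass with far fewer reads in a total than in an oxidized library, so the shares called lower depend on that filter. Charlie12_GG, with 1 and 5 oxidized reads, again passed through its total libraries alone, so its call is a description.

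**Figure D2:**
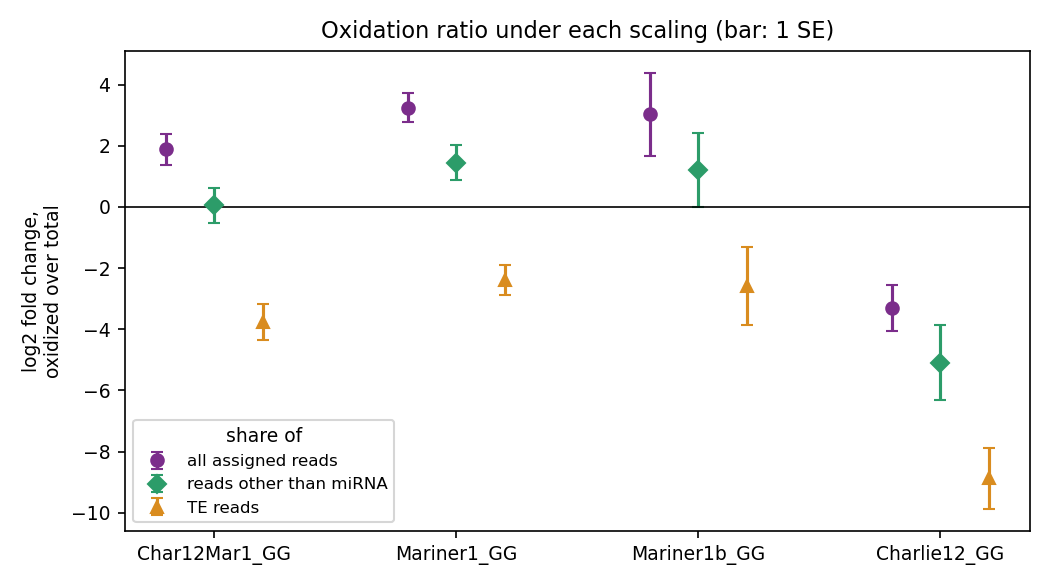
Log2 fold change of oxidized over total libraries (vertical axis, bars 1 SE) for the 4 rows tested, as a share of all assigned reads, of reads other than miRNA, or of TE reads. Mariner1_GG has 3.25, 1.44 and -2.39 under the 3 scalings, and Charlie12_GG is negative under each.

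Rows named for other DNA transposons and for ancient repeats had hardly any reads after oxidation. A list of 103 rows was fixed by name: 10 Chompy and 3 Harbinger DNA transposons, and 90 rows named MER, Eulor or UCON, ancient repeats of mixed or unknown class. Of its 10 rows tested, 9 were called lower, 0 higher and 1 neither by edgeR, with 0 higher at an unadjusted p under 0.05 and 0 higher by DESeq2. In the same fit 57.3% of all rows and 18.1% of TE rows tested were called lower. Of these 10 rows 9 passed the filter on low counts through the total libraries alone, so a lower value was nearly set for them and the count is a description. Only 1 of the 103 rows, Chompy-2_Croc, had at least 10 reads in both oxidized libraries, with 13 and 13 reads, against 18895 and 12548 reads in the total libraries. Summed, the list had 12.1 and 1.28 CPM in oxidized libraries, against 1314 and 1047 CPM in total libraries. MER133A alone held 121 of the oxidized reads of the list. Mariner1_GG and Char12Mar1_GG, by contrast, had at least 68.6 CPM in each oxidized library. The other rows described here did not share this: Mariner1b_GG had 6.19 CPM in oxidized replicate 1, and Charlie12_GG had 0.0911 and 0.355 CPM in the oxidized libraries. The difference between the lists was not tested.

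**Figure D3:**
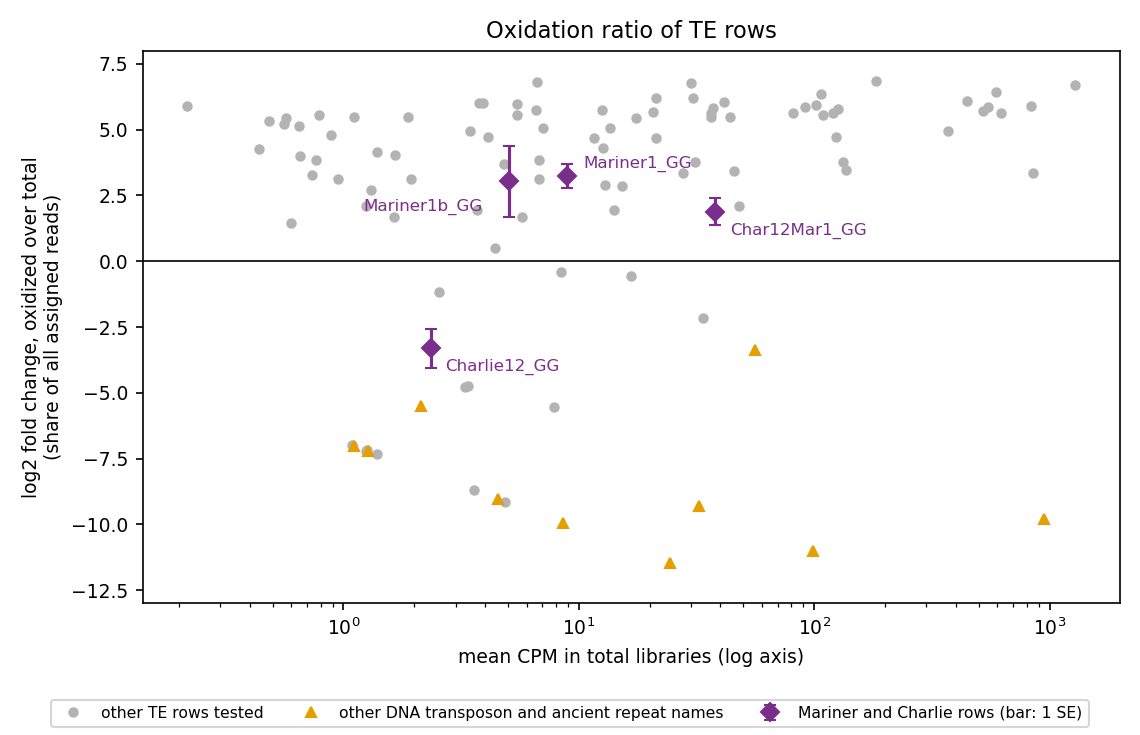
Log2 fold change of oxidized over total libraries, as a share of all assigned reads, against the mean CPM in total libraries (log axis) for the 105 TE rows tested. The Mariner and Charlie rows are diamonds with bars of 1 SE, and 3 of them lie above 0 but below the median of 4.05 (scaled to TE reads these 3 turn negative), while Charlie12_GG lies at -3.30.

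In both oxidized libraries Mariner1_GG made up a larger part of the reads of the 8 rows than in the total libraries, and Char12Mar1_GG a smaller one. Mariner1_GG made up 41.6% and 27.4% of the reads of the 8 rows after oxidation, against 14.8% and 17.5% in the total libraries. Char12Mar1_GG made up 54.5% and 51.6% in the oxidized libraries, compared with 71.3% and 67.2% in the total libraries. Charlie12_GG made up 0.0553% and 0.0964% after oxidation, against 3.73% and 4.74% in the total libraries. None of these shares overlapped between groups, but they are parts of one total and not separate observations. For scale, the CPM of the groups did not overlap for most TE rows tested (72.4% higher and 21% lower after oxidation). The rate for such shares was not computed. Mariner1b_GG was on both sides, with 3.76% and 20.9% in oxidized and 9.17% and 9.25% in total libraries. Within a library Mariner1_GG had 0.764 and 0.531 reads per Char12Mar1_GG read in the oxidized libraries, compared with 0.208 and 0.260 in the total libraries. The lengths of the annotated copies were not used here, so reads of different rows are not levels per length. Rows whose names share a part may also share sequence, and the split of reads among them is then uncertain.

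The 3 rows with Mar or Mariner in their names differed in strand, and Mariner1_GG was the one with mostly sense reads. Antisense reads were 32.7% (exact 95% binomial interval 29.3 to 36.1) and 33.8% (31.4 to 36.4) of Mariner1_GG reads after oxidation, against 38.1% (30.0 to 46.7) and 37.7% (30.0 to 46.0) in the total libraries. The intervals of the groups overlap. Both strands of Mariner1_GG were higher after oxidation as shares of all assigned reads. Its sense reads averaged 56.5 CPM in oxidized and 5.54 CPM in total libraries (edgeR log2 fold change 3.35, adjusted p = 0.00904), and its antisense reads 28.3 CPM in oxidized and 3.38 CPM in total libraries (log2 fold change 3.06, adjusted p = 0.00565). Of the TE rows tested, 67.5% of 80 were called higher for sense reads and 76.5% of 85 for antisense reads. Over all rows tested the shares were 13.8% and 50%.

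Char12Mar1_GG was mostly antisense in every library. Antisense reads were 71.5% (68.6 to 74.3) and 61.7% (59.9 to 63.6) in the oxidized libraries, compared with 70.1% (66.5 to 73.6) and 69.4% (65.4 to 73.1) in the total libraries. The oxidized libraries lay on either side of the total ones. Its antisense reads alone rose as a share of all assigned reads, with 90.8 CPM in oxidized and 26.5 CPM in total libraries (edgeR log2 fold change 1.77, adjusted p = 0.0125; its unstranded fold change is negative scaled to TE reads). Its sense reads, with 49.2 CPM in oxidized and 11.5 CPM in total libraries, did not pass (log2 fold change 2.09, adjusted p = 0.0608).

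Of these 3 rows Mariner1b_GG had the highest antisense share in each oxidized library. Antisense reads were 100% (94.7 to 100) and 80.3% (77.8 to 82.6) of its reads after oxidation, against 57.0% (45.8 to 67.6) and 52.5% (41.0 to 63.8) in the total libraries. Both oxidized intervals lay above both total ones, but they count reads as if each were a separate molecule. The first rests on 68 reads, fewer than the 122 taken above as the yield of 1 molecule. The second rests on 1082 reads, or 8.29 molecules on that untested scale. Its antisense reads alone were called higher as a share of all assigned reads (34.0 CPM in oxidized and 2.77 CPM in total libraries, edgeR log2 fold change 3.61, adjusted p = 0.0281). The unstranded fold change is negative when scaled to TE reads. By library the antisense level of Mariner1b_GG was 6.19 and 61.7 CPM in oxidized, against 2.73 and 2.81 CPM in total libraries. Most of the rise thus lay in oxidized replicate 2. Its sense reads did not pass (7.56 CPM in oxidized and 2.30 CPM in total libraries; log2 fold change 1.71, adjusted p = 0.609). For Charlie12_GG 0 of 1 and 0 of 5 reads were antisense in the oxidized libraries, compared with 24 of 35 and 23 of 41 in the total libraries.

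Over the 8 rows together the antisense share was lower than in other TE rows after oxidation. It was 56.4% and 57.9% after oxidation, against 63.5% and 61.5% in the total libraries, a difference of -5.39 percentage points. In the 233 other TE rows it was 96.3% and 95.6% in the oxidized libraries, compared with 75.8% and 80.2% in the total libraries. Without Char12Mar1_GG the antisense share of the remaining 7 rows was 38.2% and 53.8% in oxidized and 47.2% and 45.4% in total libraries. The groups then overlap. Char12Mar1_GG is mostly antisense, and it made up 54.5% and 51.6% of the reads of the 8 rows after oxidation, against 71.3% and 67.2% in total libraries. How far the difference of the 8 rows comes from this make-up or from strand within rows was not tested. A mostly sense TE row was not rare after oxidation: of 86 TE rows with at least 100 reads over both oxidized libraries, 23 had under 50% antisense reads, Mariner1_GG among them. Mariner1_GG ranked 22 from the lowest antisense share, Char12Mar1_GG 28 and Mariner1b_GG 36, and the median was 91.0%.

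**Figure D4:**
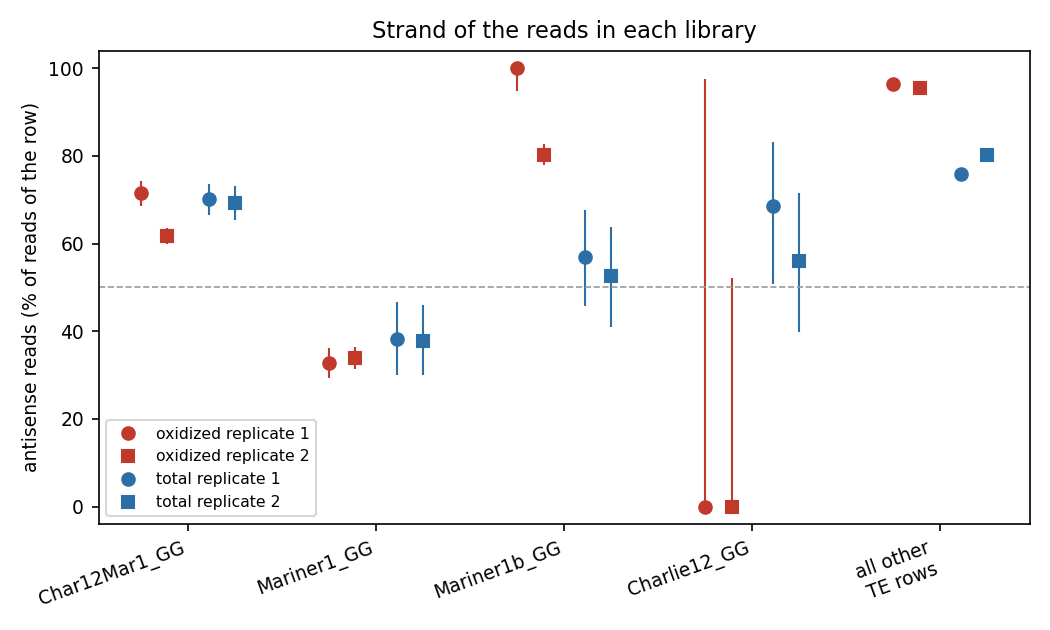
Antisense reads as a percentage of the reads of each row, in oxidized libraries (red) left of total libraries (blue), with exact 95% binomial intervals for single rows that cover counting error only, and the summed share of all other TE rows at the right. Mariner1_GG lies under 50% in all 4 libraries, and the other TE rows lie at 96.3% and 95.6% in oxidized libraries against 75.8% and 80.2% in total libraries.

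The TE rows most like each family were sought over the 4 libraries, by Euclidean distance of log2(CPM + 0.5) among 95 other TE rows with a mean of at least 20 reads. Mariner1_GG lay nearest to 3 long terminal repeat rows, GGLTR10C-int (distance 0.63), GGLTR5A (0.79) and GGLTR3A (0.96). GGLTR10C-int had 69.8 and 128.9 CPM in the oxidized libraries and 6.46 and 7.16 CPM in the total libraries. Its strand differed from that of Mariner1_GG after oxidation: it had 0% antisense reads there and 38.1% in total libraries, whereas GGLTR5A had 95.7% after oxidation and 34.5% in total libraries. Rows of like level thus had unlike strands.

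Char12Mar1_GG had no near neighbour of that kind, with the old LINE CR1-Y1_Aves at distance 1.38, ENS1-int at 1.99 and CR1-X2 at 2.11. Mariner1b_GG lay farther still from any row, with GGLTR4A at 1.96, GGLTR10C2 at 2.50 and GGLTR3A at 2.74. Charlie12_GG lay nearest to GGLTR3G2 (0.84), GGLTR3G1 (0.85) and REP131 (1.12). Those 3 rows had at most 0.213 CPM in an oxidized library, against 2.88 to 3.81 CPM in total libraries. The distances describe these 4 libraries and say nothing of shared function.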

How the data were processed

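Small RNA was sequenced in 2 oxidized and 2 total libraries. The files hold raw read counts per feature as deposited, from featureCounts and the build galGal6 per the submitters' processing notes. The version, aligner, annotation and handling of multi-mapping reads are not given in the sources used here, and that handling decides how near-identical repeat copies share reads. Each library had 6 tables, each as unstranded and as reverse-strand counts (48 files, all read). Reverse counts were taken as antisense. They exceeded the unstranded counts in 4 TE rows, but in 0 of the 8 rows described here. No repeat consensus sequence was used here. Of 24356 gene and miRNA IDs, 0 matched a RefSeq name table of another assembly (GRCg7b).

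CPM is a count over the summed unstranded counts of the 6 tables. One edgeR 4.0.16 fit (R 4.3.3) covered all 24689 rows (glmQLFit, glmQLFTest, default expression filter, 1326 rows kept, no TMM factor) with Benjamini-Hochberg adjustment at 0.05. SE is the log2 fold change over the root of the F statistic. DESeq2 1.42.0 was an alternative, as were other scalings, strands, filters, libraries left out and a replicate block. The fit was tested on simulated data, which checks the code and not how the fit performs on these libraries. Intervals are exact (Clopper-Pearson, scipy 1.17.1) and, like the floor of 3 reads, cover counting error only, since PCR copies are not independent molecules. Replicates differed beyond sampling noise (chi-square per degree of freedom 238.8 between oxidized and 95.8 between total libraries).

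The main fit was unpaired. Libraries with the same number were treated as pairs only for the ratios by library number and in the replicate block, because the design text says that samples were halved. The labels do not tie numbers to samples. The correlation of their deviations from the group means was 0.047 over 1326 rows. All 8 rows were named, with the most abundant row of the list of other repeats and the 3 nearest TE rows of each row with a mean of at least 20 reads. The rows, lists and tests were chosen with earlier results of these data known. The OldhAT rows were added after their values were seen.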

Additional observations from a re-analysis of the deposited data

How the results depend on the processing

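The count of the 8 rows called higher (2) was 3 with no filter on low counts, counted as molecules or with antisense reads alone, where Mariner1b_GG was added. With antisense reads alone 76.5% of TE rows and 50% of all rows tested were called higher. The count was 1 with TMM factors, sense reads alone (67.5% of TE rows and 13.8% of all rows tested) or the replicate block. It was 0 with reads other than miRNA or TE reads as the library size (edgeR, 0 at an unadjusted p under 0.05 in both). Scaled to TE reads 1.72% of TE rows and 0.157% of all rows tested were called higher. Such shares were not computed for the other alternative fits. DESeq2, run with its own size factors only, called 2 higher and 1 lower. The count called higher also changed with a library left out, where a group left with a single library is given the spread of the other group. The count called lower (1) was 3 with TE reads as the library size, where 44% of TE rows and 75.3% of all rows tested were called lower. It was 0 counted as molecules, with sense reads alone (Charlie12_GG not tested) or with the replicate block (edgeR, 0 at an unadjusted p under 0.05 in each). It also changed with a library left out. With no filter on low counts the lower row was hAT6-N1_Croc (edgeR adjusted p = 0.0194, a description only) and not Charlie12_GG. The directions reversed were those of Char12Mar1_GG (-3.77), Mariner1_GG (-2.39) and Mariner1b_GG (-2.59), all with TE reads as the library size. That scaling and the sense reads were chosen after the data were seen. Over rows tested in both fits, the median change of a row's log2 fold change was -0.17 with TMM and -0.15 with DESeq2. It was -1.74 with miRNA left out and -5.55 with TE reads as the library size. The replicate block changed no call of Mariner1_GG or Mariner1b_GG (log2 fold change 3.23 and 2.11).

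The ratio of the summed level (4.84) ranged from 2.99 to 6.69 with a library left out, was 1.37 with miRNA left out, and was 7.45 without Char12Mar1_GG. The share of TE reads and the antisense share kept their direction under each alternative run, the antisense share at -0.31 percentage points without Char12Mar1_GG.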
